A study of Mus musculus with 12 samples.

Results

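The comparison described here set microglia that lack the fructose transporter GLUT5 against control microglia at the end of oxygen-glucose deprivation (OGD), before any recovery. OGD imitates ischaemia in a culture dish by withholding both oxygen and glucose from the cells, and here it lasted 6 h. The control libraries (WT) came from mice that carry the Cx3cr1EGFP reporter, which marks microglia and related macrophages. The knockout libraries (KO) came from Slc2a5-/-::Cx3cr1EGFP mice, which carry the same reporter and lack Slc2a5, the gene for GLUT5, as a homozygous deletion. Each group held 3 libraries, all labelled male and from mice of postnatal days 35 to 40, and both groups were sorted by fluorescence and went through OGD. The protocol gives a wider age range, postnatal days 30 to 45. The other 6 of the 12 libraries, 3 of each genotype, were taken after 1 day of recovery and serve below only for comparison. Genes on the X and Y chromosomes were left out, and 18165 of the 50970 autosomal genes that were counted passed the filter on low counts and were tested. The labels do not say whether replicates are separate animals or separate cultures, and p-values therefore measure the spread between these libraries, which may be technical.

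Microglia are the resident macrophages of the brain. They clear debris and dying cells, sense injury through purine and chemokine receptors, and divide locally when their number falls or the tissue is damaged. GLUT5 carries fructose across the cell membrane and does not carry glucose well, and in the brain its transcript is found mainly in microglia. In cells deprived of oxygen and glucose, energy metabolism, stress responses and the cell cycle are the usual points at which transcription changes.

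The 6 libraries held 31509859 to 45347118 counts each, and 4.20% to 5.75% of the counts came from the mitochondrial genome. Levels below are in CPM, counts scaled to a common library size after adjustment by TMM factors. The genotypes lay apart on the first principal component (61.3% of the variance), and KO replicate 2 lay apart from the other KO libraries on the second (17.1%). Transcripts of macrophages and microglia were high in all 6 libraries: Csf1r lay between 647 and 831 CPM, Trem2 between 312 and 339 CPM and the reporter's own locus Cx3cr1 between 75 and 87.0 CPM. Of the transcripts that define microglia in the intact brain, Tmem119 lay between 0.0295 and 0.263 CPM, and Siglech had 0 counts in each WT library and at most 3 in a KO library. P2ry12 was low but measured, between 2.92 and 5.22 CPM, and the microglial transcription factor gene Sall1 lay between 22.0 and 30.4 CPM. Although all libraries were labelled male, each carried Xist, at 151 to 159 CPM in WT and 231 to 244 CPM in KO, and the summed level of 4 Y-linked genes was 101 to 116 CPM in WT and 60.7 to 73.2 CPM in KO. This was so in each of the 6 libraries, so none could be set aside for it, and its part in the results was not tested.

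Slc2a5 (ENSMUSG00000028976.10, GRCm38 chr4:150119283-150144169, plus strand) was a rare transcript in both genotypes. Its counts were 45, 40 and 58 in WT replicates 1, 2 and 3, and 17, 4 and 17 in the KO replicates. The groups did not overlap, and reads were still assigned to the gene in every KO library. The log2 fold change of KO over WT was -1.75 (SE 0.38), with an adjusted p of 0.0108 in edgeR's quasi-likelihood test with Benjamini-Hochberg adjustment, the test used throughout. The call was lost without WT replicate 2 (adjusted p 0.052) or WT replicate 3 (adjusted p 0.069), at the low depth this gene had. Which exons the deletion removed was not given in the sources used here.

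The threshold for a called gene was an adjusted p below 0.05. Of the 18165 autosomal genes, 1344 (7.40%) were called, 169 (0.930%) of them higher and 1175 (6.47%) lower in KO. Lower calls were thus the large majority, and 835 of them were lower by at least 2-fold, against 44 of the higher calls that were higher by as much. The genes called lower were weakly expressed, with a median level of 2.41 CPM over the 6 libraries, against 28.2 CPM for those called higher and 11.3 CPM for those not called. Among genes at 1 to 5 CPM 14% were called lower, while among those at 100 CPM or more 0.638% were called lower and 2.11% higher. Protein-coding genes made up 1066 of the 1175 lower calls, and none of 118 snoRNA genes was called. The median exon length was 4818 bases for genes called lower, 3134 bases for those called higher and 3459 bases for those not called.

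The split between the directions depended on the fit. It was 539 higher (3.03%) and 1305 lower (7.33%) of the genes tested when only the 6 OGD libraries were used, 487 higher and 1217 lower with DESeq2, and 498 higher and 1556 lower with no filter on low counts. Leaving out 1 OGD library lowered the counts in each case. There were 93 higher calls without WT replicate 1, 76 higher and 648 lower without WT replicate 2, 66 higher and 434 lower without WT replicate 3, 82 higher and 630 lower without KO replicate 1, 665 lower without KO replicate 2, and 110 higher without KO replicate 3. Without KO recovery replicate 3, which enters the fit through the shared estimate of the spread, there were 314 higher and 1353 lower calls. At an unadjusted p below 0.05 there were 3246 genes, and for 30.3% of all genes tested the 3 KO libraries did not overlap the 3 WT libraries.

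**Figure D1:**
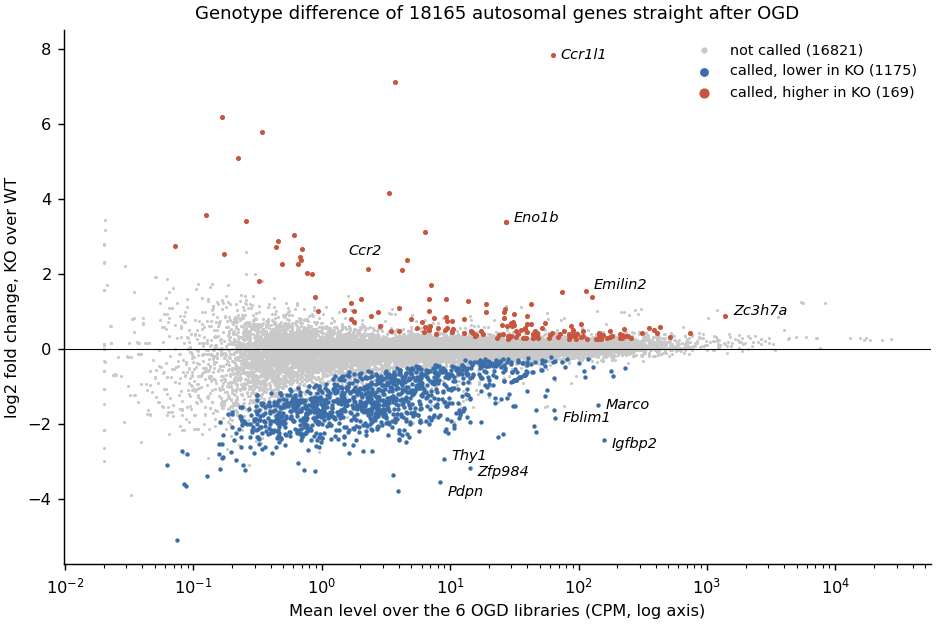
Mean level over the 6 libraries taken straight after OGD (CPM, log axis, with lower values drawn at 0.02 CPM) against the log2 fold change of KO over WT, 1 point per autosomal gene tested. The 1175 genes called lower in KO (blue) lie mostly at low levels, and the 169 called higher (red) extend to the most abundant transcripts, with Ccr1l1 at the top.

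Cell division genes were lower in KO as a block. All 49 tested genes of mitosis and the spindle were called lower, with a median log2 fold change of -1.06, against 6.47% called lower and a median of -0.01 over all autosomal genes. Summed over the list, the level was 641, 606 and 736 CPM in WT replicates 1, 2 and 3 and 346, 289 and 395 CPM in KO. The highest KO library thus lay well under the lowest WT library. Mki67, the source of the proliferation antigen Ki-67, was at 76.2, 69.2 and 87.2 CPM in WT and 37.1, 28.6 and 43.5 CPM in KO (log2 fold change -1.09, SE 0.13, adjusted p 0.00026). Top2a, the topoisomerase that untangles chromosomes before they part, was at 38.9, 34.5 and 45.3 CPM in WT and 16, 11.5 and 20.4 CPM in KO. For both genes the genotypes were clear of each other, with KO replicate 2 the lowest library.

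The 4 members with the smallest p were Bub1, Stmn1, Bub1b and Birc5. Bub1, a kinase of the spindle checkpoint, which holds a dividing cell until all chromosomes are attached, was at 9.05, 7.91 and 9.62 CPM in WT and 2.79, 2.79 and 3.25 CPM in KO (log2 fold change -1.59, SE 0.15, adjusted p 1.3e-05). Its partner Bub1b was at 12.1, 11.1 and 14.1 CPM in WT and 5.49, 4.07 and 5.22 CPM in KO. Birc5 (survivin, part of the complex that corrects attachments) fell from a mean of 10.0 to 3.81 CPM, and Stmn1, which destabilises microtubules, from 24.7 to 12.7 CPM. The largest change of the list was that of the centromere protein Cenpf (log2 fold change -1.70), and the smallest that of the condensin subunit Smc4 (-0.35). The mitotic cyclin Ccnb1 (-0.90), its kinase Cdk1 (-0.56) and the transcription factor Foxm1 (-0.87) lay between them. The count of members called lower was 39 to 49 when 1 library was left out, and 44 without KO replicate 2.

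Genes of DNA replication and S phase fell less uniformly. Of 41 tested, 18 were called lower and none higher (25 had an unadjusted p below 0.05), with a median log2 fold change of -0.42. The share called lower was 43.9%, against 6.47% of all autosomal genes. The summed level was 630, 620 and 676 CPM in WT and 545, 529 and 561 CPM in KO, again without overlap. Mcm5, a subunit of the helicase that opens replication origins, was at 13.5, 12.5 and 15.2 CPM in WT and 6.96, 5.39 and 6.92 CPM in KO (log2 fold change -1.09, SE 0.12, adjusted p 6.5e-05). Uhrf1, which keeps DNA methylation through replication, fell from 9.97 to 4.25 CPM, and the ribonucleotide reductase subunit Rrm2 from 17.5 to 7.22 CPM. Mcm7 fell from 21.2 to 12.9 CPM and thymidine kinase Tk1 from 8.24 to 4.86 CPM. Pcna, the clamp that holds the polymerase on DNA, was at 101 CPM in WT and 104 CPM in KO and was not called (log2 fold change 0.05, SE 0.08). Without WT replicate 3 the list had 9 members called lower.

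Of 15 genes that brake the cycle, 3 (20.0%) were called lower and none higher, against 6.47% called lower over all autosomal genes. They were Btg2, an antiproliferative gene that injury induces (31.3 to 20.2 CPM), Rbl1, which encodes the pocket protein p107 (20.9 to 15.5 CPM), and the CDK inhibitor Cdkn2b (3.15 to 1.7 CPM). Btg2 was called whichever OGD library was left out. The call of Rbl1 was lost without WT replicate 3 (adjusted p 0.065), and that of Cdkn2b without any OGD library but WT replicate 1 (0.084 to 0.18). Cdkn1a, the p53-induced CDK inhibitor p21, was at 220, 233 and 220 CPM in WT and 251, 291 and 274 CPM in KO, with an adjusted p of 0.13.

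The promoters of these 2 lists differ in short elements that are known to time transcription in the cycle, and the sequences below show the elements in members that fell. The CHR, bound by MuvB complexes, turns on genes of G2 and mitosis, and E2F sites turn on genes of S phase. Searched as TTTGAA on both strands of the 300 bases around each start in the RefSeq table (GRCm38.p6), the CHR was found in 29 of 40 mitosis genes with a promoter in the table (72.5%) and in 4 of 33 S phase genes (12.1%). It was found in at least 1 promoter of 20.2% of all 27018 genes in the table. The share was 14.9% of the 11538 that were autosomal genes tested here. An E2F element searched as GCGGGAA was found in 14 of 33 S phase genes (42.4%) and 1 of 40 mitosis genes (2.50%). The shares were 5.29% of all genes in the table and 9.25% of the autosomal genes tested among them. CCAAT, the NF-Y element often found beside a CHR, was found in 75% of the mitosis genes and 54.5% of the S phase genes. The shares were 41.1% of all genes in the table and 42.1% of the autosomal genes tested among them. These matches are descriptions of letters, not of bound sites. The stretches below lie upstream of the start given in the table, 5′ to 3′ on the strand of the gene, with the CHR or its reverse complement in capitals for the first 5 and the E2F element or its reverse complement for the last 2. Kif15 and Ncapd2 encode a spindle motor and a condensin subunit, Ube2c the ubiquitin ligase partner that ends mitosis, Cdc6 a loader of the replicative helicase and Rrm1 the large subunit of ribonucleotide reductase.
Mki67, chr7:135716445-135716504, minus strand: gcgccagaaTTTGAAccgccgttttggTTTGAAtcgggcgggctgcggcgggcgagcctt
Top2a, chr11:99024190-99024239, minus strand: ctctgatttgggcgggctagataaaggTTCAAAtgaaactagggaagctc
Kif15, chr9:122951035-122951080, plus strand: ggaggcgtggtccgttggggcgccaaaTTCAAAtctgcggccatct
Ube2c, chr2:164769873-164769928, plus strand: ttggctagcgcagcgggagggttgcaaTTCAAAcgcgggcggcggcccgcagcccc
Ncapd2, chr6:125191677-125191736, minus strand: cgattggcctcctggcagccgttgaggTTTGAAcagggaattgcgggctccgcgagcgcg
Cdc6, chr11:98907986-98908046, plus strand: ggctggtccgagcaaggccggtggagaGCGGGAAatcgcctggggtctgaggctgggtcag
Rrm1, chr7:102441601-102441661, plus strand: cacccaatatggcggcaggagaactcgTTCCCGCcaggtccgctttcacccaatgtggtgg
All 7 of these genes were called lower in KO. Kif15 fell from 7.24 to 2.45 CPM, Ube2c from 12.1 to 5.38 CPM, Ncapd2 from 23.9 to 10.9 CPM, Cdc6 from 2.52 to 1.02 CPM and Rrm1 from 28.2 to 16.9 CPM.

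**Figure D2:**
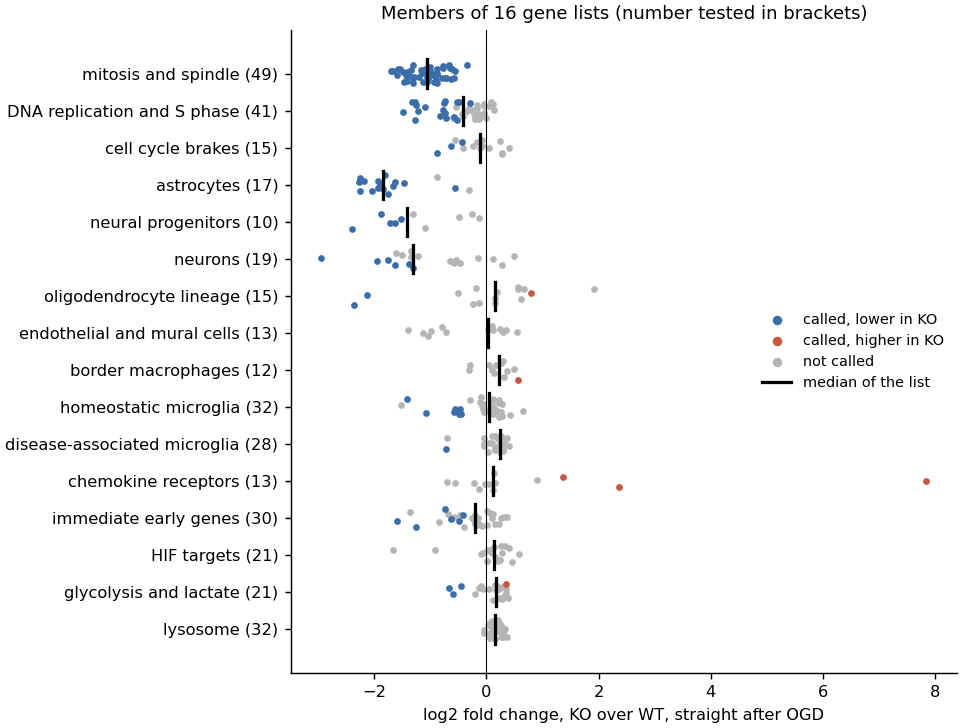
Log2 fold change of KO over WT straight after OGD for each tested member of 16 gene lists, with the number tested in brackets and the median as a black bar. The 49 mitosis genes and 15 of the 17 astrocyte markers are called lower (blue). The medians are 0.06 for homeostatic microglia, 0.24 for disease-associated microglia, 0.13 for HIF targets and 0.16 for the lysosome.

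Markers of astrocytes, the star-shaped support cells of the brain, were also lower in KO. Of 17 tested, 15 (88.2%) were called lower and none higher, against 6.47% called lower over all autosomal genes. The median log2 fold change was -1.84. Summed over the list, the level was 176, 235 and 280 CPM in WT replicates 1, 2 and 3 and 72.1, 56.8 and 101 CPM in KO, so the genotypes did not overlap and KO replicate 2 was the lowest. Gfap, the intermediate filament of astrocytes, was at 34.4, 42.0 and 51.5 CPM in WT and 7.86, 5.98 and 12.8 CPM in KO (log2 fold change -2.26, SE 0.33, adjusted p 0.0031). Aqp4, the water channel of astrocyte endfeet, was at 11.7, 15.6 and 18 CPM in WT and 2.79, 2.23 and 4.92 CPM in KO. For both genes the order of the 6 libraries was that of the summed list. Sox9, a glial transcription factor, fell from 2.68 to 0.711 CPM. Without WT replicate 2, WT replicate 3, KO replicate 1 or KO replicate 2, the list had 9, 6, 7 and 9 members called lower.

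Other transcripts of neural cells went the same way at lower levels. Of 10 markers of neural progenitors 5 were called lower (median log2 fold change -1.41), among them the transcription factors Pax6 (2.25 to 0.417 CPM), Sox2 (6.01 to 1.60 CPM) and Sox11 (1.49 to 0.449 CPM) and the RNA-binding protein gene Msi1 (1.53 to 0.489 CPM). That count was 3 without WT replicate 1, WT replicate 2 or KO replicate 2, and 2 without WT replicate 3 or KO replicate 1. Of 19 neuronal markers 6 were called lower and none higher (median -1.30). They included the surface protein gene Thy1 (15.8 to 2.04 CPM), Map2, which stabilises dendritic microtubules (5.23 to 1.34 CPM), Rtn1 (8.66 to 2.56 CPM) and the GABA-synthesising enzyme gene Gad1 (1.32 to 0.534 CPM). The summed neuronal level was 55.4, 69.3 and 80.3 CPM in WT and 29.7, 25.3 and 34.8 CPM in KO. In bulk libraries, fewer cells of a type and less RNA per cell cannot be told apart.

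The oligodendrocyte list did not move as one. Of its 15 tested markers 2 were called lower and 1 higher (20.0% called, against 7.40% of all autosomal genes). Olig1 (2.52 to 0.478 CPM) and Olig2 (1.01 to 0.229 CPM), transcription factors of the lineage, were called lower, and the proteoglycan gene Cspg4 was called higher (9.41 to 16.4 CPM), though without WT replicate 1 or 2 or any KO replicate its call was lost (adjusted p 0.051 to 0.10). The summed level of its markers was 157, 163 and 164 CPM in WT and 154, 159 and 155 CPM in KO. None of 13 endothelial and mural markers, 4 of ependyma and choroid plexus, 11 of fibroblasts, 7 of muscle, 5 of lymphocytes or 5 of dendritic cells was called in edgeR's test. At an unadjusted p below 0.05 they counted 3, 1, 2, 0, 0 and 0. Cldn5 and Emcn of endothelium, Cd8a of lymphocytes and S100a9 of neutrophils had 0 counts in each of the 6 libraries. Such markers were 2 of 21 endothelial and mural, 3 of 19 lymphocyte and 2 of 13 neutrophil genes listed. Other members were expressed. The summed lists lay between 258 and 318 CPM for endothelial and mural cells, 6.17 and 8.90 CPM for lymphocytes, and 80.9 and 115 CPM for neutrophils.

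**Figure D3:**
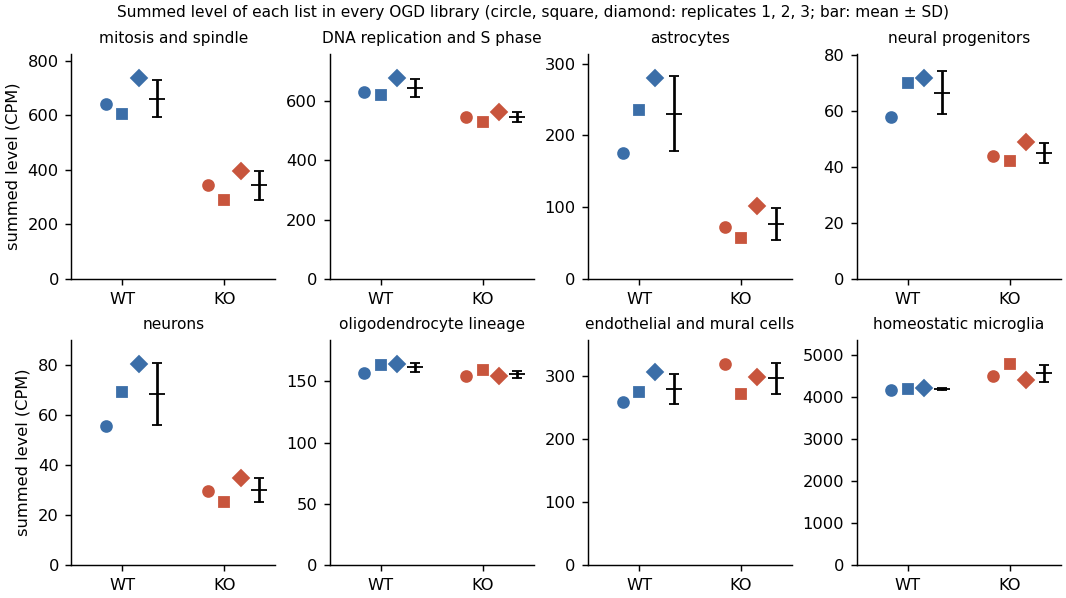
Summed level in CPM of 8 gene lists in each of the 6 OGD libraries (WT blue, KO red, replicates 1 to 3 as circle, square and diamond, with the mean ± SD as a black bar). The sums for mitosis, S phase, astrocytes, neural progenitors and neurons are lower in KO without overlap. The sum for homeostatic microglia is higher in KO, also without overlap. Those for the oligodendrocyte lineage and for endothelial and mural cells overlap between genotypes.

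The mean log2 level of the astrocyte markers in each library was also carried into the fit as a covariate. Because it did not overlap between the genotypes, this level and the genotype could be told apart only in part, and the calls dropped to 20 higher (0.110%) and 27 lower (0.149%). Of the mitosis genes 1, Bub1, was still called (log2 fold change -1.67, adjusted p 0.024), and the median of the list was -0.47. No member of the S phase list (median -0.19) or of the neural progenitor list (-0.09) was called in this fit. The astrocyte list had no called member (median 0.19), but the covariate was made from that list, so this outcome was built in. No neuronal marker was called either, although the median of that list was -1.20. Of the 47 genes called, 38 were also called in the same direction without the covariate.

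Over all autosomal genes, the largest falls among well-measured ones (mean of at least 5 CPM, groups apart) were led by Pdpn, Zfp984 and Thy1. Pdpn, the mucin-like glycoprotein podoplanin, was at 12, 14.8 and 19.3 CPM in WT and 1.14, 0.920 and 1.83 CPM in KO (log2 fold change -3.55, SE 0.25, adjusted p 2.2e-06). Zfp984, a zinc-finger protein gene, was at 28.7, 25.7 and 22.3 CPM in WT and 2.94, 2.73 and 2.84 CPM in KO (log2 fold change -3.17, SE 0.15, adjusted p 2.3e-09). Its WT and KO levels were each nearly even across replicates, unlike the neural transcripts. It overlaps the annotated gene Gm20707, which was also called lower, so its reads may be shared.

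Secreted and matrix proteins made up much of the rest of these falls. Igfbp2, which binds insulin-like growth factors, was the most abundant gene to fall by this much, at 177, 259 and 361 CPM in WT and 44.9, 30.3 and 72.4 CPM in KO (log2 fold change -2.43, SE 0.38, adjusted p 0.0053). Fmod, a small proteoglycan of collagen matrix, fell from 39.6 to 7.71 CPM, Prelp from 9.31 to 2.03 CPM, the brain proteoglycan gene Ncan from 77.0 to 16.5 CPM and the anti-angiogenic Serpinf1 from 72.3 to 17.2 CPM. In each of these the WT libraries ran in the order of the summed astrocyte markers, lowest in replicate 1 and highest in replicate 3. The calls of Atp1b2 (16.1 to 3.34 CPM) and Serpinf1 were each lost in 5 of the 6 fits that left out 1 OGD library (adjusted p up to 0.15 and 0.14), and that of Atp1b2 also without WT recovery replicate 1 (0.059). That of Ncan was lost without WT replicate 2 or 3 or KO replicate 1 or 2 (up to 0.078), that of Prelp without KO replicate 1 (0.063) and that of Thy1 without KO replicate 1 (0.051).

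Chil3 and Lcn2, both made by activated myeloid cells, also stood among the 14 largest falls. Chil3, a chitinase-like protein, was at 15.0, 14.1 and 16.1 CPM in WT and 3.36, 3.22 and 3.69 CPM in KO (log2 fold change -2.13, SE 0.19, adjusted p 1.6e-05). It was still called with the astrocyte covariate (-2.59, adjusted p 0.0057). Lcn2, the iron-siderophore carrier lipocalin 2, was at 14.8, 25.4 and 11.9 CPM in WT and 3.55, 2.92 and 5.47 CPM in KO, and its call was lost in all 6 fits that left out 1 library (adjusted p 0.077 to 0.16).

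**Figure D4:**
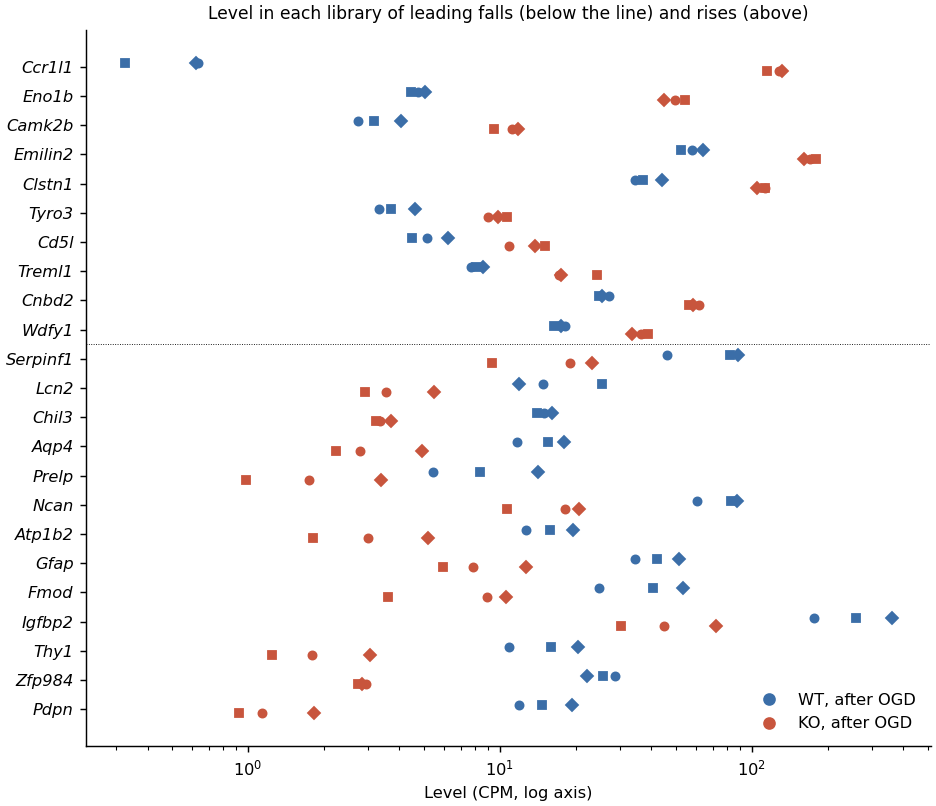
Level in each of the 6 OGD libraries (CPM, log axis) of the genes described among the 14 largest falls and the 12 largest rises of called protein-coding genes with a mean of at least 5 CPM, with WT in blue and KO in red. For none of these genes do the genotypes overlap, by the rule that chose them, and WT and KO lie farthest apart for Ccr1l1.

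Among the rises, one gene exceeded all others. Ccr1l1, a chemokine receptor gene that resembles Ccr1 (GRCm38 chr9:123977243-123978408, minus strand), had 26, 11 and 30 counts in WT and 5448, 3490 and 4836 counts in KO. These were 0.634, 0.325 and 0.624 CPM against 129, 115 and 132 CPM, so a gene near its detection limit in WT was a well-expressed one in each KO library (log2 fold change 7.84, SE 0.25, adjusted p 4.7e-10). Ccr1 itself was at 105, 108 and 102 CPM in WT and 113, 111 and 118 CPM in KO and was not called (log2 fold change 0.12, SE 0.10, adjusted p 0.60). How reads that match both genes were counted was not given in the sources used here.

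Ccr1l1 was 1 of 3 genes called higher among 13 chemokine receptors tested, none of which was called lower. The share called higher was 23.1%, against 0.930% of all autosomal genes. Ccr2, the receptor that draws monocytes into tissue (chr9:124101950-124113557), was at 1.93, 1.03 and 1.5 CPM in WT and 6.82, 8.84 and 7.74 CPM in KO (log2 fold change 2.37, SE 0.19, adjusted p 3.1e-06). Ccr1l1 and Ccr2 lie in the same receptor cluster on chromosome 9, and the list had 3 members called higher under every alternative setting run, the astrocyte covariate and each library left out included. Cxcr4 (62.0 and 60.8 CPM) and Cx3cr1 (80.6 and 82.8 CPM), 2 other receptors of microglia, were not called. Ccr2 is also a marker of monocytes, and of the 12 monocyte markers tested it alone was called higher, with Chil3, F10 (14.2 to 8.94 CPM) and Vcan (7.9 to 4.16 CPM) called lower. The calls of F10 and Vcan were lost in 4 of the 6 fits that left out 1 library (adjusted p up to 0.084 and 0.21), and that of Vcan without WT recovery replicate 1 (0.058) or KO recovery replicate 3 (0.067).

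The next largest rises were of mixed kinds. Eno1b, an enolase gene on chromosome 18, was at 4.73, 4.43 and 5.07 CPM in WT and 49.7, 54.5 and 45.1 CPM in KO (log2 fold change 3.38, SE 0.12, adjusted p 1.5e-10). It is a near copy of the glycolytic enolase gene Eno1 and overlaps the annotated gene AC150274.2, so its reads are uncertain, and Eno1 was called lower at 214 and 142 CPM. Emilin2, a glycoprotein of elastic matrix, was at 58.2, 52.5 and 64.1 CPM in WT and 171, 181 and 161 CPM in KO (log2 fold change 1.55, SE 0.11, adjusted p 4e-07). Camk2b, a calcium-dependent kinase, rose from 3.32 to 10.8 CPM, and Clstn1, which links cargo to kinesin, from 38.5 to 110 CPM. Tyro3, a receptor for the bridging molecules Gas6 and protein S that mark dying cells, rose from 3.88 to 9.86 CPM, and Cd5l, a secreted macrophage protein, from 5.29 to 13.3 CPM. Treml1 (8.11 to 19.7 CPM), Cnbd2 (25.8 to 59.0 CPM) and the endosomal protein gene Wdfy1 (17.3 to 36.2 CPM) rose as well. Cnbd2 and Wdfy1 overlap other annotated genes.

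Of the 12 largest rises 9 were still called with the astrocyte covariate, as were 3 of the 14 largest falls. These falls included members of the astrocyte list, such as Gfap and Aqp4, from which the covariate was made. The most abundant genes called higher changed by less. Zc3h7a, an RNA-binding protein gene, was at 1167, 870 and 909 CPM in WT and 2295, 1372 and 1698 CPM in KO (log2 fold change 0.86, SE 0.16, adjusted p 0.004). The lysosomal glycoprotein gene Creg1 (630 to 842 CPM), Gpr137b (460 to 569 CPM), Wfdc17 (349 to 518 CPM), the scaffold gene Ahnak (353 to 470 CPM) and Pmp22 (321 to 459 CPM) followed. None of these 6 was called with the covariate. Leaving out WT replicate 3 ended the calls of Creg1 (adjusted p 0.063) and Wfdc17 (0.064), leaving out KO replicate 1 that of Wfdc17 as well (0.061), leaving out any OGD library that of Gpr137b (0.062 to 0.14) and leaving out any OGD library but KO replicate 3 that of Pmp22 (up to 0.084). The most abundant genes called lower were Igfbp2, Axl, Eno1, Marco, the glycerophosphodiesterase gene Gpcpd1 (270 to 190 CPM) and the septin gene Sept9 (150 to 107 CPM). Gpcpd1 lost its call in 5 of those 6 fits (adjusted p up to 0.15) and Sept9 without WT replicate 3 (0.054).

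Called genes were denser around Slc2a5 itself. Within 10 Mb of the gene on chromosome 4, 15 of 220 tested genes (6.82%) were called higher and 32 (14.5%) lower. On the rest of the chromosome the shares were 0.931% and 6.52%, and on the other autosomes 0.855% and 6.36%. The called neighbours changed in both directions and by different amounts. Fblim1, an adaptor of focal adhesions, fell from 103 ± 2.08 to 28.5 ± 1.54 CPM (SD, n = 3 each, log2 fold change -1.85, adjusted p 9.8e-10). Pdpn, Zfp984, Eno1 and the lysyl hydroxylase gene Plod1 (82.1 to 47.6 CPM) also fell in this window, and Prdm16 fell from 11 to 2.73 CPM. Clstn1, the chloride transporter gene Clcn6 (28.1 to 51.1 CPM) and the immediate neighbour Gpr157 (81.7 to 129 CPM) rose.

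Among the zinc-finger genes of this window the signs were mixed. Zfp991 (10.4 to 3.44 CPM), Zfp993 (2.17 to 0.549 CPM), Zfp992 (9.72 to 6.12 CPM) and Zfp933 (5.48 to 3.52 CPM) were called lower beside Zfp984, and Zfp990 (0.334 to 1.35 CPM), Zfp985 (0.190 to 1.22 CPM) and Zfp981 (0.144 to 0.503 CPM) were called higher. These genes are close copies of each other, so the split of reads among them is uncertain. Of the 47 genes called with the astrocyte covariate 10 lay in this window, among them Fblim1 (-1.93), Zfp984 (-3.69) and Clstn1 (1.82). Outside it, 3 genes called in that fit are named here after their values were seen. Pcna-ps2 was at 1.31 CPM in WT and 11.3 CPM in KO and Gm8189 at 0.0515 and 7.39 CPM, while Gm4735 was lower, at 6.72 and 1.29 CPM. The KO libraries differ from WT by the deleted allele and by whatever DNA is linked to it. They also differ in the levels of Xist, of Y-linked genes and of neural markers, as given above. For genes inside or outside the window, these differences go with genotype and cannot be told apart here.

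**Figure D5:**
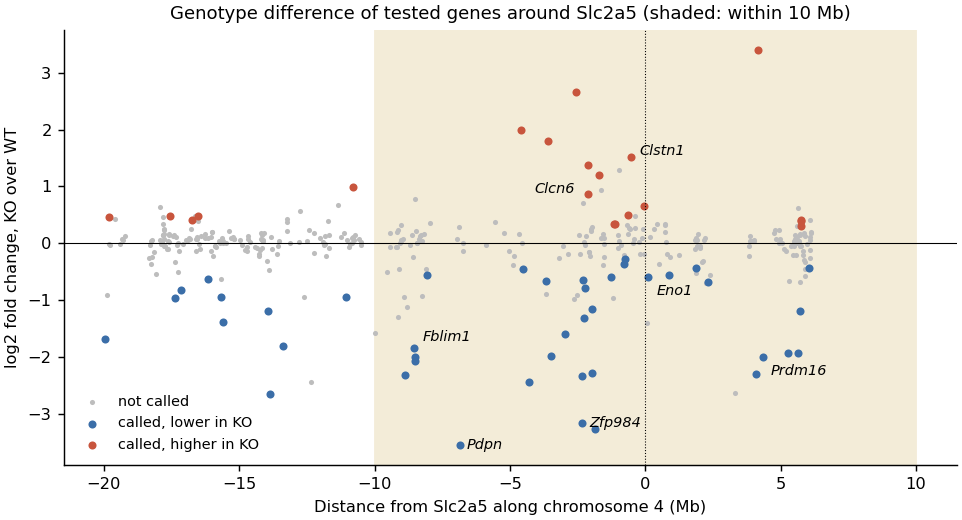
Log2 fold change of KO over WT for tested genes within 20 Mb of Slc2a5 on chromosome 4, by distance from that gene, with the 10 Mb window shaded. Called genes of both directions (15 higher in red, 32 lower in blue) fill the window, from Pdpn at -3.55 upward.

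Genes of the microglial state differed by list, and 6.47% of all autosomal genes were called lower. Of 32 homeostatic genes tested 7 (21.9%) were called lower and none higher, with a median log2 fold change of 0.06. They included Adgrg1, an adhesion receptor of resting microglia (5.22 to 1.97 CPM), Ltc4s, which makes leukotriene C4 (18.2 to 8.66 CPM), Pmepa1, a target and inhibitor of TGF-beta signalling (7.76 to 5.29 CPM), Fcrls (6.59 to 4.69 CPM) and the purine receptor P2ry12 (4.90 to 3.30 CPM). The count of homeostatic genes called fell to 4 without WT replicate 1, 3 without WT replicate 2 or 3, and 4 without KO replicate 1, and the call of Fcrls was lost without WT replicate 2 or 3 or KO replicate 3 (adjusted p up to 0.059). Csf1r, the survival receptor of microglia, was at 653, 653 and 647 CPM in WT and 814, 831 and 740 CPM in KO, with an adjusted p of 0.079. Fitted on the 6 OGD libraries alone, 5 homeostatic genes were called higher and 8 lower. The summed level of the homeostatic list was 4165, 4200 and 4210 CPM in WT and 4502, 4782 and 4409 CPM in KO.

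Of 28 genes of the disease-associated state, 1 was called, the efferocytosis receptor gene Axl, which was lower (241, 236 and 222 CPM in WT, 144, 150 and 130 CPM in KO, log2 fold change -0.72, SE 0.15, adjusted p 0.0081). The list had 23 members above 0 and a median of 0.24, and in the fit on the 6 OGD libraries alone 12 were called higher. Among 32 phagocytic and scavenger receptors Tyro3 was higher, and Marco, Axl and Megf10 were lower. Marco, a scavenger receptor for bacteria and debris, was at 198, 198 and 228 CPM in WT and 81.4, 54.7 and 85.3 CPM in KO (log2 fold change -1.49, SE 0.16, adjusted p 0.00012), one of the few large falls of an abundant gene. Megf10, an engulfment receptor that astrocytes also express, fell from 4.13 to 1.19 CPM, and its call was lost without WT replicate 2 (adjusted p 0.062) or 3 (0.061). Of 17 complement genes 1 was called higher and 1 lower, the latter C1s1, a protease of the classical pathway (1.60 to 0.393 CPM). In the fit on the 6 OGD libraries alone 6 phagocytic receptors were called higher and 3 lower, and 6 complement genes higher and 4 lower. DESeq2 called 3 higher in each of these lists. The list of border macrophages had 1 of 12 members called, Clec12a (31.1 to 45.8 CPM), whose call was lost without WT replicate 2 (0.061) or KO replicate 1 (0.057). The shares called were 3.57% (disease-associated), 12.5% (phagocytic), 11.8% (complement) and 8.33% (border macrophages), against 7.40% of all autosomal genes.

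Inflammatory mediators were called in both directions. The share called was 18.2% of chemokine ligands and 17.6% of cytokines and mediators, against 7.40% of all autosomal genes. Of 22 chemokine ligands, Ccl4 was higher (32.8 to 51.9 CPM), and Cx3cl1 (4.61 to 1.72 CPM), Cxcl14 (11.5 to 7.33 CPM) and Cxcl12 (5.99 to 1.76 CPM) were lower. These calls were mostly lost when 1 OGD library was left out: that of Cxcl12 in all 6 such fits (adjusted p 0.052 to 0.21) and without KO recovery replicate 3 (0.078), that of Cxcl14 in 5 (up to 0.18), that of Ccl4 in 4 (up to 0.088) and that of Cx3cl1 without WT replicate 3 (0.057). The fit on the 6 OGD libraries alone called 3 ligands higher and 4 lower. Of 17 cytokines and mediators Chil3, Il18 (13.3 to 7.94 CPM) and the prostaglandin synthase gene Ptgs2 (6.80 to 3.17 CPM) were lower and none was higher, and Ptgs2 lost its call in 5 of the 6 fits that left out 1 library (up to 0.20). None of 15 NF-kB subunit and feedback genes, 15 toll-like receptor genes, 27 interferon-stimulated genes, 8 MHC class II genes or 15 MHC class I genes was called by edgeR. At an unadjusted p below 0.05 these lists counted 0, 2, 1, 3 and 6. The class I list had 14 members above 0 (median 0.26), and H2-D1 was at 1791, 1930 and 1843 CPM in WT and 2473, 2227 and 2345 CPM in KO, with an adjusted p of 0.10. DESeq2 called 5 members of that list higher.

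The immediate early genes, switched on within minutes by many stimuli, held 6 called lower of 30 and none higher, with a median of -0.20. The share called lower was 20.0%, against 6.47% of all autosomal genes. Fos was at 74.0, 73.5 and 82.9 CPM in WT and 32.4, 37.4 and 27.6 CPM in KO (log2 fold change -1.24, SE 0.18, adjusted p 0.0015). Its relative Fosb was at 8.59, 7.82 and 9.69 CPM in WT and 3.53, 1.68 and 3.36 CPM in KO (-1.59, SE 0.22, adjusted p 0.00053). Both AP-1 genes thus stood well under WT in every KO library. Ier2 (18.4 to 11 CPM), Btg2 and the phosphatases Dusp1 (91.6 to 65.2 CPM) and Dusp6 (21 to 15.8 CPM), which switch off MAP kinases, were the others. Not all members went that way: Jun was at 151 CPM in WT and 177 CPM in KO, Atf3 at 340 and 424 CPM and Myc at 38.1 and 45.4 CPM, with adjusted p of 0.26, 0.066 and 0.077. RLE scaling called 2 members of this list higher.

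None of 21 HIF targets, 18 genes of the unfolded protein response, 17 heat shock genes, 32 lysosomal genes or 21 autophagy genes was called by edgeR, and 6, 0, 2, 9 and 4 had an unadjusted p below 0.05. The share called over all autosomal genes was 7.40%, so a count of 0 in a short list does not show that it was unchanged. Other fits called some HIF targets higher: 3 on the 6 OGD libraries alone, 2 with DESeq2, 1 with RLE scaling or the replicate block and 4 with no filter on low counts, where 1 was lower. Without KO replicate 2, 2 heat shock genes and 1 gene of the unfolded protein response were called higher. The HIF target Slc2a1, which encodes the glucose transporter GLUT1, was at 194, 187 and 198 CPM in WT and 245, 323 and 225 CPM in KO (log2 fold change 0.46, SE 0.16, adjusted p 0.11). Hspa5, the main chaperone of the endoplasmic reticulum, was at 2039, 2319 and 1905 CPM in WT and 2770, 856 and 2652 CPM in KO, so the low KO value came from replicate 2 alone. Summed over the unfolded protein list, KO replicate 2 was at 3910 CPM and the other 5 libraries were between 6084 and 7808 CPM. Lysosomal genes had 30 of 32 members above 0 with a median of 0.16, and the fit on the 6 OGD libraries alone called 12 of them higher, as DESeq2 did for 6 and the fit without KO recovery replicate 3 for 5.

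The shares called in the ATF4, NRF2 and p53 lists were 7.69%, 5.26% and 9.09%, near the 7.40% of all autosomal genes. Psat1, an enzyme of serine synthesis (129 to 108 CPM), and Vldlr (4.63 to 2.09 CPM) were lower among 26 ATF4 targets. Blvrb, which reduces biliverdin (73.2 to 95.3 CPM), was higher among 19 NRF2 targets. Of 22 p53 targets and cell death genes the kinase gene Plk2 was higher (264 to 357 CPM) and Perp lower (14 to 6.85 CPM). Perp alone of these 5 was called whichever OGD library was left out. The others reached adjusted p of 0.12 (Psat1), 0.13 (Vldlr), 0.16 (Blvrb) and 0.085 (Plk2). Timp3, a metalloproteinase inhibitor, was the 1 gene called of 18 matrix proteases and inhibitors, lower at 19 and 6.00 CPM. The fit on the 6 OGD libraries alone called 5 members of this list higher and 1 lower. Its summed level was 5225, 5250 and 5385 CPM in WT and 6744, 7110 and 6929 CPM in KO. Summed levels of the disease-associated, complement, MHC class I, NRF2 and lysosome lists were also higher in KO without overlap. These sums were not tested.

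Metabolic genes differed by list. The share called was 16.67% of genes of hexose transport and fructose use and 19.05% of those of glycolysis and lactate. Over all autosomal genes it was 7.40%. Both lists are short and share Aldoc. Of 12 hexose transporters and enzymes of fructose use, Slc2a5 and the aldolase gene Aldoc were called, both lower. Khk, the kinase that commits fructose to metabolism, was at 13.9, 13.9 and 14.3 CPM in WT and 13.4, 14 and 14.1 CPM in KO, without any separation. Of 21 genes of glycolysis and lactate, Hk2, the inducible hexokinase, was higher (213, 207 and 204 CPM in WT, 260, 288 and 245 CPM in KO), and Eno1, Aldoc (21.8 to 16 CPM) and Pfkm, a phosphofructokinase (9.78 to 6.18 CPM), were lower. The median of the list was 0.17, and the fit on the 6 OGD libraries alone called 5 higher and 3 lower. The calls of Hk2 and Aldoc were lost without WT replicate 3 (adjusted p 0.080 and 0.074) or KO replicate 1 (0.057 and 0.056), and that of Hk2 also without WT replicate 2 (0.062) or KO replicate 2 (0.059).

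None of 7 genes of the pentose phosphate pathway, 16 of the tricarboxylic acid cycle, 40 nuclear genes of the respiratory chain, 21 of cholesterol synthesis or 18 of lipid efflux and storage was called by edgeR. They counted 1, 1, 1, 2 and 5 at an unadjusted p below 0.05. Over all autosomal genes 7.40% were called, so a count of 0 in lists this small does not show an unchanged pathway. Pgd, of the oxidative pentose pathway, was at 430 and 441 CPM, Sdha, of the tricarboxylic acid cycle, at 259 and 241 CPM and the ATP synthase gene Atp5b at 583 and 559 CPM in WT and KO. Acadvl, the very-long-chain acyl-CoA dehydrogenase, was the 1 gene called of 14 in fatty acid oxidation, lower at 43.7 and 36.7 CPM, and leaving out any 1 OGD library ended the call (0.088 to 0.18). Of 13 genes of retinoid metabolism, 1 fell and 1 rose. Aldh1a1, which makes retinoic acid, was at 4.44, 7.35 and 7.67 CPM in WT and 0.426, 0.460 and 1.01 CPM in KO (log2 fold change -3.35, SE 0.32, adjusted p 2.2e-05). Rbp4, a retinol carrier, rose from 12.8 to 25.1 CPM, with a call lost in 5 of the 6 fits that left out 1 library (up to 0.080).

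After 1 day of recovery 2 libraries stood apart from their replicates. WT replicate 1, the shallowest at 9885259 counts, had 18.4% mitochondrial counts against 7.35% and 7.998%, and its treatment label names no recovery. KO replicate 3 had 4.72% against 8.23% and 10.45%. The same genotype contrast called 4014 autosomal genes (22.1%), 3990 without that WT library and 5093 without that KO library. Of the 12 largest rises straight after OGD, 10 were also called higher after recovery, and of the 14 largest falls 8 were also called lower, none of either set being called in the opposite direction. These counts were 9 and 7 without the WT library and 11 and 8 without the KO library. The difference between the times was itself called for 934 genes (5.14%), 826 without the WT library and 1695 without the KO library. Ccr1l1 was at 68.9 CPM in WT and 142 CPM in KO after recovery, and Ccr2 at 27.2 and 26.7 CPM, so the gap of the first narrowed (interaction log2 -6.81, adjusted p 3.1e-08) and that of the second closed (-2.39, adjusted p 0.00011). Both interactions were also called with either library left out. Of the 49 mitosis genes 41 had a called interaction, and after recovery 1 was called higher and 2 lower. The interaction was called for 33 of them without the WT library and 40 without the KO library. Bub1, for example, was at 8.26 CPM in WT and 9.03 CPM in KO (interaction 1.73, adjusted p 0.00034). The astrocyte list was also lower in KO after recovery (12 of 17 called lower, median -1.90, with 11 lower without the WT library and 9 lower and 1 higher without the KO library), and 1 of its members had a called interaction.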

How the data were processed

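The values deposited by the authors are unnormalized counts of reads, 1 whole number per gene and library. The submitters' processing notes name HISAT2, featureCounts and GRCm38. Versions, annotation release and strand options are not given in the sources used here. Per the labels the libraries were made with a stranded total RNA kit, while the molecule field names polyA RNA.

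All 12 count columns were fitted together in R 4.3.3 with edgeR 4.0.16 (filterByExpr, TMM scaling, robust quasi-likelihood fit, 1 mean per group, no covariate, 8 residual degrees of freedom, common biological coefficient of variation 0.119), so that the 4 groups share 1 estimate of the spread. Of 55421 genes 18842 were tested, and p-values were adjusted over all of these before autosomal genes were described. Standard errors come from the F statistic, whose square root divides the size of the log2 fold change. WT recovery replicate 1 was grouped by its title, since its treatment field names no recovery. Within the OGD groups each pair of replicates differed by more than sampling noise (chi-square per degree of freedom 7.33 to 42.8). Identifiers were matched to GENCODE M21 (55240 of 55421), and promoters came from RefSeq.

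The 47 gene lists, the members and the rule for named genes were chosen with earlier results of these data known. The rule names Slc2a5, the 12 largest rises and 14 largest falls among called protein-coding genes with a mean of at least 5 CPM and no overlap between groups, the 6 most abundant genes called in each direction, and up to 4 called members of each list, or its most abundant member. A few genes that meet the rule are not reported here. The alternatives were DESeq2 1.42.0, other scalings and filters, the 6 OGD libraries alone, each OGD library left out, a replicate block and an astrocyte covariate. Leaving out WT recovery replicate 1 or KO recovery replicate 3 was added after seeing the data. The fit was tested on simulated data. Prelp, Pfkm, Acadvl, Mcm7, Tk1, Stmn1, Ltc4s, P2ry12, C1s1, Timp3, Map2, Olig1, Top2a, Ube2c, Ncapd2, Foxm1, Dusp1, Csf1r and Slc2a1 overlap other annotated genes, so their reads may be shared.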

Additional observations from a re-analysis of the deposited data

Results flagged for a closer look

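For 28 of the named genes the genotype difference after recovery differed from that straight after OGD by the interaction test of edgeR with Benjamini-Hochberg adjustment. Values are the interaction on the log2 scale, positive where KO stood higher relative to WT after recovery than straight after OGD, and no explanation of them was tested. The interaction was called for 24 of the 28 without WT recovery replicate 1, where Zfp984, Stmn1, Btg2 and Tnnt3 lost it (adjusted p 0.055 to 0.079), and for 27 without KO recovery replicate 3, where F10 lost it (0.055).

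Among the rises, the difference was -6.81 for Ccr1l1, -2.39 for Ccr2, -0.82 for Emilin2, -0.93 for Treml1, -0.74 for Wdfy1, -0.54 for Gpr137b, -0.46 for Hk2 and -1.79 for Rbp4. Rbp4 was called higher straight after OGD (log2 fold change 0.97) and called lower after recovery (-0.82, or -0.45 without WT recovery replicate 1), a call lost without KO recovery replicate 3 (adjusted p 0.077). Ahnak, also a rise, had an interaction of 0.51.

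Genes of cell division went toward or past WT: Mcm5 (1.68), Uhrf1 (1.70), Mcm7 (0.85), Tk1 (1.02), Bub1 (1.73), Bub1b (1.51), Birc5 (0.85), Stmn1 (0.57), Rbl1 (0.54) and Btg2 (0.52). Mcm5 was called higher in KO after recovery (0.59). Among the other falls the values were 0.87 for Zfp984, 2.06 for Chil3, 1.09 for Fos, 2.49 for C1s1, 0.85 for F10 and 1.5 for Fcrls, and Fcrls was called higher in KO after recovery (1.01). Marco had a value of -0.97, with a larger fall after recovery (-2.46) than straight after OGD (-1.49).

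Cd74, the invariant chain of MHC class II, and Tnnt3, a muscle troponin, were not called straight after OGD. Their interactions were -2.69 and 2.52. Cd74 was at 154 CPM in WT and 192 CPM in KO straight after OGD, and at 711, 619 and 799 CPM in WT and 137, 140 and 134 CPM in KO after recovery.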

How the results depend on the processing

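Under DESeq2, RLE or upper quartile scaling, both other filters and the fit on the 6 OGD libraries alone, 88 to 92 of the 92 named genes that were called kept their call and direction, and with 1 OGD library left out 60 to 78 did. Higher calls numbered 539 with the 6 OGD libraries alone, 487 with DESeq2 and 498 with no filter on low counts. Leaving out 1 OGD library gave 66 to 150 higher and 434 to 1021 lower calls. Members called lower numbered 39 to 49 for mitosis, 9 to 17 for S phase, 6 to 14 for astrocytes, 2 to 5 for neural progenitors, 4 to 6 for neurons, 5 to 6 for immediate early genes and 3 to 5 for homeostatic genes, and 3 chemokine receptors were called higher each time. Without WT recovery replicate 1 or KO recovery replicate 3, both chosen after seeing the data, 90 of the 92 kept their call. There were then 217 and 314 higher and 1173 and 1353 lower calls straight after OGD, with up to 19 S phase, 16 astrocyte, 6 neural progenitor, 7 neuronal and 8 homeostatic genes lower. The interaction had 441 and 852 genes higher and 385 and 843 lower.

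With the astrocyte covariate there were 20 higher and 27 lower calls. Members called lower numbered 1 for mitosis and 0 for S phase, neural progenitors, neurons, immediate early and homeostatic genes. The astrocyte list also had 0, which was built into the fit, since the covariate was made from that list. Of the 92 named genes 78 lost their call. Among these the sign of 5 turned: Atp1b2 (log2 fold change 0.29), Cxcl12 (0.18), Msi1 (0.35), Olig1 (0.022) and Vcan (0.10). The covariate and the genotype share most of their variation, so a lost call here does not separate them.

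Same-numbered replicates of the 2 genotypes did not deviate together (r = -0.08, -0.12 and 0.16 for replicates 1, 2 and 3), so the numbers were not taken as pairs. With a replicate block there were 120 higher and 1009 lower calls, and 80 of the 92 named genes kept their call. The interaction then had 337 genes higher and 236 lower, against 1018 and 853 with no filter on low counts. Genes below about 1 CPM had the widest errors, and 3 against 3 libraries cannot reach an exact permutation p below 0.10, so summed levels were not tested.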

Other observations

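Genes called lower were spread over all autosomes, from 4.72% of the genes tested on chromosome 17 to 10.2% on chromosome 18, and those called higher from 0.342% on chromosome 10 to 2.13% on chromosome 4. Among 1310 antisense genes 8 were called higher and 53 lower, among 520 lincRNA genes 6 and 29, and among 1152 processed pseudogenes 11 and 6. Processed pseudogenes were the 1 class of more than 500 tested genes in which higher calls outnumbered lower ones. That direction was not tested against the other classes, and the split of reads between a pseudogene and its parent gene is uncertain.

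Beyond the named genes, Alox5, Ptgs1 and Fpr1 are given here after their values were seen. Alox5, the 5-lipoxygenase, was at 13.5 CPM in WT and 6.47 CPM in KO (log2 fold change -1.06, adjusted p 4.4e-05), and Ptgs1, the constitutive cyclooxygenase, at 53.1 and 34.4 CPM (-0.63, adjusted p 0.0007). Both were also called lower with the astrocyte covariate, at -1.12 and -0.93. Ltc4s, which acts after Alox5 in the leukotriene pathway and is given above, was not called with the covariate (adjusted p 0.13). Fpr1, a receptor for bacterial and mitochondrial formyl peptides, was at 26.2 and 13.7 CPM (-0.94, adjusted p 0.0011).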
